A study of Rattus norvegicus with 4 samples.

Results

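Zfp genes encode zinc-finger proteins, and those described here are the members of the family with a mean level of at least 1 FPKM (fragments scaled by transcript length and library size) in RSC96 cells, a rat line labelled as Schwann cells, which wrap the axons of peripheral nerves. They were chosen by a symbol that begins with Zfp and a number and by that mean over all 4 libraries, taking the row with the highest mean where rows shared a symbol. Among 179 deposited Zfp symbols, 132 met the rule, 12 were listed at 0 in every library, and the other 35 lay above 0 but under the minimum. The level chose the members, so the levels below are a description. The rule did not use the difference between treated and untreated cells, but its mean took in both. Zfp786 met it only through the treated libraries and Zfp26 only through the untreated ones. Members just inside the minimum were Zfp786, Zfp26 and Zfp347 with means of 1.03, 1.07 and 1.08 FPKM, and symbols just outside were Zfp14, Zfp112 and Zfp354a with 0.937, 0.891 and 0.883 FPKM.

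The study compared RSC96 cells of generation 4 treated for 48 h with recombinant rat IL-22 at 100 ng/ml with RSC96 cells of generation 4 that received only the solvent, 0.1% bovine serum albumin, for a time not given in the labels. Both groups had been kept without serum overnight. IL-22 acts on cells through the transcription factor STAT3, and the study asked, by its title, how it bears on the growth of Schwann cells and on nerve repair. Each group had 2 libraries of poly(A) RNA, and separate cultures are not named in the labels, so the spread behind each p-value is that of a library pair and may be technical. In bulk RNA, fewer cells that express a gene and less RNA of it per cell cannot be told apart.

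Rows above 0 numbered 11641 and 11617 in the IL-22 libraries and 11196 and 11412 in the control libraries. Taking control library 1 as 1, the steps between low values gave relative depths of 1.08 for both IL-22 libraries and 1.28 for control library 2, and absolute depth is unknown. Of 15 Schwann cell markers 14 had a row and 5 reached 1 FPKM, and the lineage markers Sox10, S100b and Ngfr lay at or under 0.119 FPKM in every library. The label of the line was therefore not matched by these defining markers. Summed FPKM of the Schwann cell markers were 82.2 and 89.1 with IL-22 against 45.7 and 48.6 in controls. Of these sums Pmp22, a myelin protein gene, gave 41.0 and 42.3 against 18.2 and 20.2, and Ncam1 34.1 and 38.3 against 23.9 and 24.9. Of the 5 tested Schwann cell markers 4 were higher by limma, where 27.6% of all tested rows were higher and 30.8% lower. Egr2 was among the 4 (4.63 and 5.60 against 0.440 and 0.480 FPKM), and Gfap was lower (0.496 and 0.810 against 1.76 and 1.60 FPKM). Egr2 and Erbb3 reached the minimum only through the IL-22 libraries and Gfap only through the controls. Their directions were thus fixed by the filter, and the count is a description. Summed FPKM of the 9 macrophage and leukocyte markers with a row were 7.18 and 4.03 with IL-22 against 4.47 and 4.19 in controls, and those of the 8 fibroblast markers 406 and 411 against 409 and 400.2. All 5 tested fibroblast markers passed by limma, where 58.4% of all tested rows passed. Thy1, Pdgfra and Pdgfrb were higher (ratios of means 1.14, 1.29 and 1.42) and Col1a1 and Col1a2 lower (0.651 and 0.848). The part of these markers in the results below was not tested.

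A zinc finger is a short protein fold held together by a zinc ion. Most Zfp proteins carry tandem fingers of the Cys2His2 type, which read DNA, and many add a KRAB domain that recruits the corepressor Trim28 (KAP1) and with it enzymes that silence chromatin. Others carry a BTB or SCAN domain, which pairs proteins, and a few with CCCH fingers bind messenger RNA instead: Zfp36 (tristetraprolin) and its relatives bind AU-rich elements in short-lived transcripts and bring in the CCR4-NOT deadenylase. The symbol Zfp therefore groups genes by their fold and not by a shared task.

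After IL-22, 20 of the 132 Zfp genes were higher, 33 were lower and 79 did not pass the limma test (adjusted p under 0.05 over 9485 tested rows, on log2(FPKM + 1)). Over all tested rows 58.4% passed, 27.6% higher and 30.8% lower. Of the Zfp genes 40.2% were called, 15.2% higher and 25% lower, so both directions lay under the share of all rows with levels pooled. By level, the lower share was above that of all rows from 5 to 10 FPKM (37.0% against 25.5%) and from 10 to 20 FPKM (42.9% against 32.6%). It was under that of all rows from 1 to 2 FPKM (0% against 9.11%), from 2 to 5 FPKM (14.7% against 16.7%) and from 20 FPKM up (14.3% against 37.8%). Groups did not overlap in 36 members in the higher and 57 in the lower direction, where 80.1% of all tested rows did not overlap in either direction. The changes were small: the median of the members' log2(FPKM + 1) differences, taken as IL-22 minus control, was -0.10 against -0.02 over all tested rows. The median size of a difference was 0.22 against 0.32. A difference of at least 1 was reached by 4 of the 132 members and by 714 of the 9485 tested rows.

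**Figure D1:**
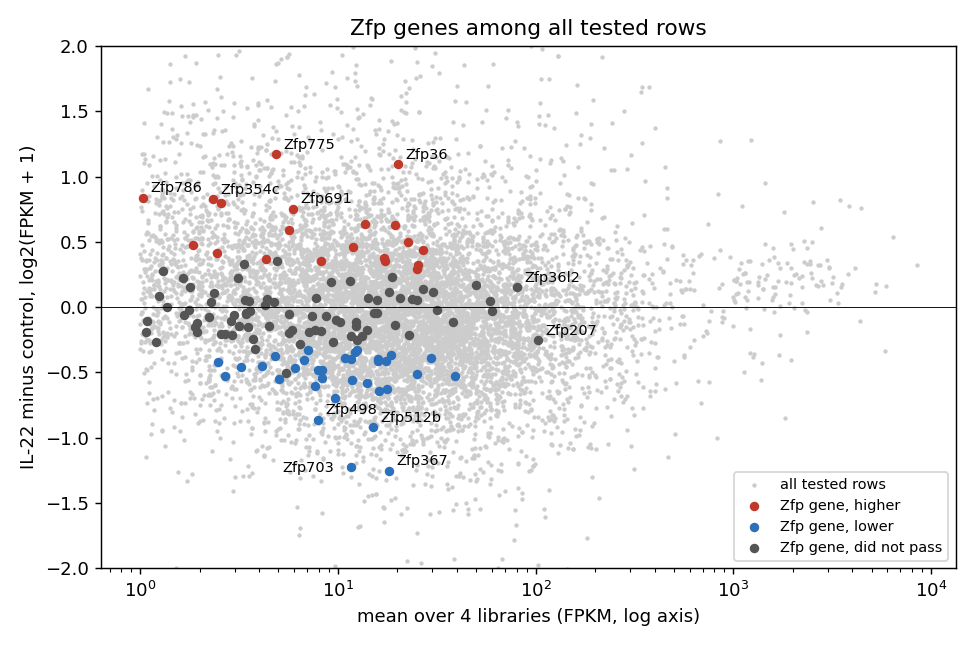
IL-22 minus control in log2(FPKM + 1) units (vertical axis) against the mean FPKM over the 4 libraries (horizontal log axis) for the 132 Zfp genes (coloured by their limma call) and all 9485 tested rows (grey). The Zfp genes lie between -1.25 and 1.17, and 77 grey rows beyond 2 in either direction are not drawn.

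The share of called members varied with level and did not rise throughout. Among the 49 members from 1 to 5 FPKM 7 were higher and 5 lower, or 24.5% called, where 45.9% of all rows at that level were called. These are 14.3% higher and 10.2% lower, against 31.6% and 14.3% of all rows at that level. Among the 83 members of at least 5 FPKM 13 were higher and 28 lower, or 49.4% called, where the share of all rows was 61%. Here 15.7% were higher and 33.7% lower, against 26.8% and 34.2% of all rows, so the lower share was near the background. Within that range, 38.1% of the 21 members of at least 20 FPKM were called, where 64.9% of all rows at that level were. The libraries of a pair differed on the log2 scale by a median of 0.097 with IL-22 and 0.17 in controls from 1 to 5 FPKM, and of 0.11 with IL-22 and 0.10 in controls at 5 FPKM and above. The 15 members from 1 to 2 FPKM gave 2 calls, both higher, and 1 of these, Zfp786, reached the minimum only through the IL-22 libraries.

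**Figure D2:**
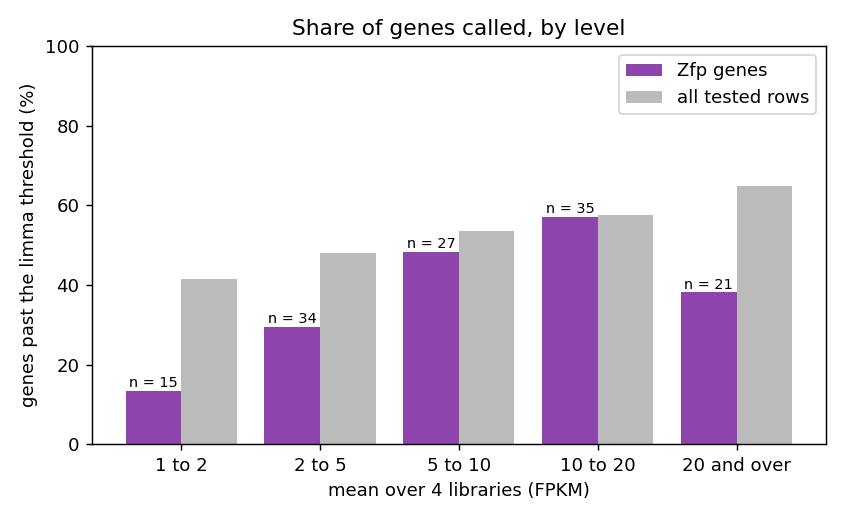
Percentage of Zfp genes (purple) and of all tested rows (grey) past the limma threshold in 5 ranges of the mean FPKM over the 4 libraries, with the number of Zfp genes above each bar. The share of Zfp genes called was nearest to that of all rows from 10 to 20 FPKM (57.1% against 57.6%) and farthest from it from 1 to 2 FPKM (13.3% against 41.4%).

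Of the 8 members with the highest mean levels 7 did not pass, at a level where 64.9% of all rows passed (20 FPKM and above). Zfp207, whose product BuGZ loads the checkpoint protein Bub3 onto kinetochores, measured 91.3 and 94.7 FPKM with IL-22 against 98.9 and 125 FPKM in controls (difference -0.25 ± 0.10 SE, limma adjusted p = 0.0541). Control library 2 was the highest of the 4, and the gene passed under 4 of 14 alternatives, among them the fit without control library 1 (difference -0.42, and limma adjusted p from 0.00367 to 0.263 over the alternatives). Zfp238, listed by RefSeq as Zbtb18, a repressor that acts in neuronal development, measured 60.6 and 58.2 FPKM with IL-22 against 59.99 and 61.2 FPKM in controls, and the groups overlapped. Zfp598, a ubiquitin ligase that marks collided ribosomes, measured 58.4 and 60.5 against 56.9 and 58.3 FPKM (limma adjusted p = 0.574). Zfp414, Zfp444 and Zfp496 likewise did not pass (limma adjusted p from 0.22 to 0.834). Zfp259, listed by RefSeq as Zpr1, was the 1 member that passed among the 8 highest: it fell to 30.3 and 33.6 FPKM with IL-22, against 45.9 and 46.8 FPKM in controls (-0.53 ± 0.08 SE, limma adjusted p = 0.00041). Zpr1 binds the translation factor eEF1A and the SMN protein.

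The CCCH genes were the members with a known task in messenger RNA decay. Zfp36 measured 26.6 and 28.9 FPKM with IL-22 against 11.3 and 13.7 FPKM in controls, a ratio of means of 2.22 (1.09 ± 0.10 SE, limma adjusted p = 3.02e-05). Zfp36l1 measured 26.8 and 26.5 FPKM with IL-22 against 17.8 and 19.3 FPKM in controls (0.50 ± 0.08 SE, limma adjusted p = 0.000736). Both genes thus rose, with no overlap between the groups. Zfp36l2 measured 82.8 and 87.1 FPKM with IL-22 against 72.6 and 79.99 FPKM in controls (0.15 ± 0.07 SE, limma adjusted p = 0.0966, called under 2 of 14 alternatives) and was the most abundant of the 3. The table has a further Zfp36l2 row, at 53.1 and 56.5 against 48.9 and 51.6 FPKM, which did not pass either (limma adjusted p = 0.171), and reads may be split between the copies. In FPKM, Zfp36 lay under Zfp36l1 in both control libraries and close to it in both IL-22 libraries.

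Of 28 tested genes of CCR4-NOT and messenger RNA decay, with which the Zfp36 family works, 4 were higher and 12 lower. That is 57.1% called where 58.4% of all tested rows were. By direction 14.3% were higher and 42.9% lower, where 27.6% and 30.8% of all tested rows were. The median difference was -0.19 against -0.02 over all tested rows. Btg1 and Btg2, which tie the deadenylase to its targets and restrain proliferation, rose by 0.95 and 0.83 on the log2 scale, whereas the deadenylase gene Cnot6 and the decapping enzyme gene Dcp2 fell by 0.66 and 0.60. Of 28 genes with AU-rich transcripts bound by the family 5 were under the minimum of 1 FPKM and not tested, 20 were higher, 1, Ccnd1, was lower, and Myc and Bcl2 did not pass, where 27.6% of all tested rows were higher. Il10, Nos2, Ptgs2 and Csf2 reached the minimum only through the IL-22 libraries and so had to be higher, so the count is a description. Zfp36 is itself in that list, and several of its cytokine genes were already known to move in these libraries, so its direction is no independent evidence. Cxcl1, a neutrophil attractant, measured 414 and 387 FPKM with IL-22 against 3.73 and 4.55 FPKM in controls, and Csf3, which encodes the growth factor G-CSF, 103 and 104 against 1.43 and 1.54 FPKM. Ccl2 and Cxcl3 rose by 3.72 and 3.59.

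On the log2(FPKM + 1) scale the largest rises outside the CCCH group were found among low members. Zfp775 measured 6.65 and 7.56 FPKM with IL-22 against 2.56 and 2.64 FPKM in controls (1.17 ± 0.12 SE, limma adjusted p = 5.77e-05). Its ratio of means was 2.73, and the groups were far apart relative to the spread within them. Zfp786, a KRAB gene, measured 1.75 and 1.44 FPKM with IL-22 against 0.237 and 0.702 FPKM in controls (0.84 ± 0.20 SE, limma adjusted p = 0.00677). Its ratio of means, 3.40, was above that of Zfp775, and its call was lost with quantile normalization (limma adjusted p = 0.0532, and from 0.00089 to 0.0532 over its alternatives). Zfp354c, a KRAB gene known in rat as AJ18, a repressor in bone-forming cells, measured 3.53 and 3.01 against 1.55 and 1.27 FPKM (0.83 ± 0.15 SE, limma adjusted p = 0.00146). Zfp438 measured 3.81 and 3.23 against 1.33 and 1.88 FPKM, and Zfp691 7.32 and 8.02 against 4.68 and 3.65 FPKM, with no overlap in either gene.

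Zfp295, Zfp523 and Zfp110 rose as well. Zfp295, listed by RefSeq as Zbtb21, is a BTB gene and measured 16.9 and 16.6 FPKM with IL-22 against 9.34 and 11.7 FPKM in controls (0.64 ± 0.11 SE, limma adjusted p = 0.00109). Zfp523, whose human counterpart is ZNF76, measured 23.9 and 23.6 against 15.7 and 14.2 FPKM (0.63 ± 0.09 SE, limma adjusted p = 0.000261). Zfp110 encodes NRIF, which in mouse binds the neurotrophin receptor p75NTR (Ngfr). It measured 7.61 and 6.36 FPKM with IL-22 against 4.45 and 4.12 FPKM in controls (0.59 ± 0.12 SE, limma adjusted p = 0.00301), while Ngfr itself lay at 0.110 and 0.0734 against 0.119 and 0.0310 FPKM. The other 10 higher members were Zfp385a, Zfp330, Zfp365, Zfp217, Zfp516, Zfp292, Zfp608, Zfp90, Zfp358 and Zfp511, with differences from 0.29 to 0.47. Zfp358 did not pass under 3 of 14 alternatives, those omitting the filter, control library 1 or IL-22 library 2 (adjusted p by limma between 0.00214 and 0.164).

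**Figure D3:**
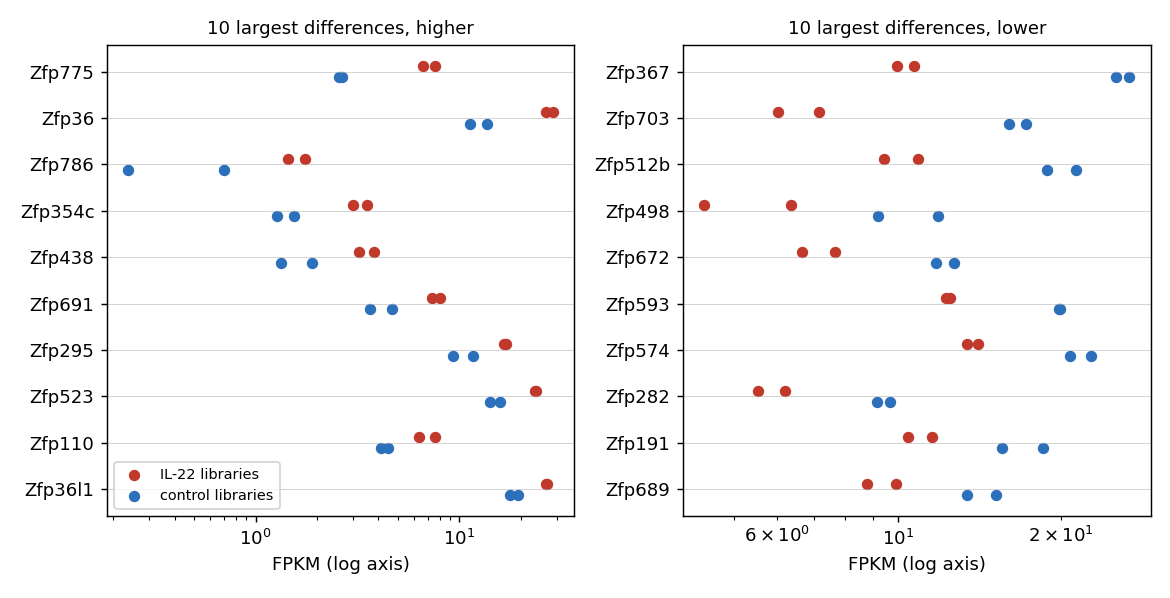
FPKM (log axis) in each IL-22 library (red) and each control library (blue) for the 10 Zfp genes with the largest higher differences in log2(FPKM + 1) units (left) and the 10 with the largest lower ones (right). The IL-22 and control points do not overlap in any of the 20 genes, which follows largely from their choice by difference and limma threshold. Of all tested rows 80.1% did not overlap.

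Zfp367 and Zfp703 had the largest falls, and their order changes with the scale. Zfp367, whose human counterpart ZFF29 was first described in erythroid cells, measured 9.96 and 10.7 FPKM with IL-22 against 26.7 and 25.2 FPKM in controls, a ratio of means of 0.398 (-1.25 ± 0.09 SE, limma adjusted p = 5.32e-06). Zfp703, a repressor of the NET family known as an oncogene in human breast tumours, measured 6.01 and 7.16 FPKM with IL-22 against 16.1 and 17.2 FPKM in controls, a ratio of 0.396 (-1.22 ± 0.11 SE, limma adjusted p = 2.11e-05). In both genes each IL-22 library lay well under each control library. Zfp512b measured 10.9 and 9.42 against 18.8 and 21.3 FPKM (-0.92 ± 0.10 SE, limma adjusted p = 9.15e-05). Zfp498, listed by RefSeq as the SCAN gene Zscan25, measured 4.40 and 6.36 against 11.9 and 9.20 FPKM (-0.86 ± 0.17 SE, limma adjusted p = 0.0019), and this call was lost without control library 1 (limma adjusted p = 0.0628, and from 1.61e-06 to 0.0628 over its alternatives).

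Zfp593, Zfp622 and Zfp191 were also lower. Zfp593, whose yeast counterpart Bud20 takes part in assembly of the large ribosomal subunit, measured 12.5 and 12.3 FPKM with IL-22 against 19.9 and 19.8 FPKM in controls (-0.64 ± 0.08 SE, limma adjusted p = 0.000198). Zfp622, related to the yeast large-subunit factor Rei1, fell by 0.41, a call lost without control library 1 (limma adjusted p = 0.052, and from 0.000498 to 0.052 over its alternatives). Zfp191, listed by RefSeq as Zfp24 and needed in mouse for myelination by oligodendrocytes, measured 10.4 and 11.6 FPKM with IL-22 against 18.5 and 15.6 FPKM in controls (-0.58 ± 0.11 SE, limma adjusted p = 0.00149). Its groups did not overlap, and the control libraries were spread more widely than the IL-22 libraries. Zfp672, Zfp574, Zfp282 and Zfp689 fell by 0.70, 0.62, 0.60 and 0.56. Zfp282 and Zfp689 are KRAB genes, and Zfp672 and Zfp574 have Cys2His2 fingers.

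Of 13 genes for factors of RNA, ribosomes and mitosis 3 were higher and 6 lower, or 69.2% called where 58.4% of all tested rows were (61% of those of at least 5 FPKM), with a median of -0.25. The higher ones were Zfp330, a nucleolar protein gene, Zfp385a, whose product steers p53 among its targets, and Zfp365, which acts at centrosomes and stalled replication forks, with 0.46, 0.38 and 0.35. The lower ones were Zfp367, Zfp593, Zfp638, Zfp259, Zfp622 and Zfp706. The place of Zfp367 and Zfp706 in this list rests on background knowledge, and their role was not checked here. Zfp638, a factor in splicing and fat cell differentiation, fell by 0.53, a call that the fits leaving out control library 1 or IL-22 library 2 ended (adjusted p by limma between 0.00292 and 0.0751), and the call of Zfp365 was lost without IL-22 library 2 (between 0.00917 and 0.0687). Of 22 tested repressors and chromatin cofactors 3 were higher and 7 lower, with a median of -0.12. These are 13.6% higher and 31.8% lower, where 27.6% and 30.8% of all tested rows were, so the lower share was near the background. There Zfp217, which works with CoREST, Zfp516, an activator of brown fat genes, and Zfp292 were higher by 0.29, 0.32 and 0.37. The call of Zfp217 was lost under 3 of 14 alternatives, that of Zfp516 under 1 of 14 and that of Zfp292 under 5 of 13. Zfp91, a ubiquitin ligase of the NF-kappaB kinase NIK, fell to 26.5 and 24.4 FPKM with IL-22, against 33.0 and 34.1 FPKM in controls (-0.39 ± 0.08 SE, limma adjusted p = 0.00249).

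KRAB genes formed the largest of the classes listed, though the list was not checked by protein sequence and may leave out members. Among 41 members known to carry a KRAB domain, a list drawn up after the values were seen, 4 were higher (Zfp786, Zfp354c, Zfp110 and Zfp90), 4 lower (Zfp282, Zfp689, Zfp180 and Zfp266) and 33 did not pass, or 19.5% called, where 58.4% of all tested rows were called (45.9% from 1 to 5 FPKM and 61% at 5 FPKM and above). The 4 lower genes have means of at least 5 FPKM. Their median difference was -0.06 and their median level 3.43 FPKM, against 7.93 FPKM over all 132 members. The calls of Zfp90 and Zfp266 were lost under 4 of 13 and 5 of 14 alternatives. Trim28, the gene of their corepressor, measured 120.3 and 123 FPKM with IL-22 against 273 and 244 FPKM in controls (-1.08 ± 0.07 SE, limma adjusted p = 3.73e-06). Of 19 tested genes of the corepressor complex and of heterochromatin 15 were lower and 4 did not pass (Hdac1, Hdac2, Mta1 and Mphosph8), where 30.8% of all tested rows were lower, with a median of -0.48. Uhrf1 and Dnmt1, which maintain DNA methylation when DNA is copied, fell by 1.25 and 0.93, and Mbd3, a subunit of the NuRD complex, by 0.87.

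**Figure D4:**
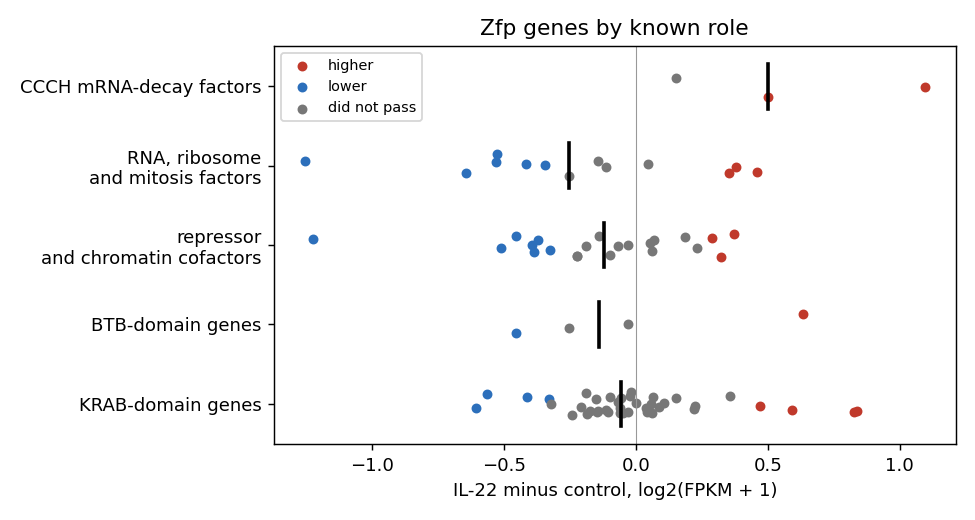
IL-22 minus control in log2(FPKM + 1) units for tested Zfp genes by known role, where each point is 1 gene coloured by its limma call and the black bar is the median of the class. The 3 CCCH genes lie to the right of 0, and 33 of the 41 listed KRAB genes did not pass. The KRAB and BTB lists were drawn up after the values were seen.

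Closely related members were set side by side, in pairs chosen after their values were seen. Zfp703 fell while its relative Zfp503 measured 22.0 and 26.4 FPKM with IL-22 against 23.1 and 23.0 FPKM in controls (0.06 ± 0.10 SE, limma adjusted p = 0.607), with overlapping groups. The difference between the 2 genes in their response was not tested. Zfp362 and Zfp384 both fell: Zfp362 measured 3.70 and 4.03 against 5.87 and 6.41 FPKM (-0.55), and Zfp384 21.2 and 19.5 against 26.0 and 33.3 FPKM (-0.51). Zfp523 rose, and its relative Zfp143, which binds promoters, measured 9.84 and 10.0 FPKM with IL-22 against 7.78 and 9.46 FPKM in controls (limma adjusted p = 0.179). Zfp608 measured 2.80 and 3.07 against 1.96 and 1.94 FPKM (0.41, limma adjusted p = 0.0291). Quantile normalization and the removal of any 1 of the 4 libraries each ended that call (adjusted p by limma between 0.0063 and 0.194). Its relative Zfp609 measured 20.3 and 22.0 against 18.9 and 21.4 FPKM, with overlapping groups.

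Other related genes showed small differences or lay at 0. Zfp148 and Zfp281, which bind GC-rich promoter elements, measured 19.2 and 17.7 against 20.9 and 20.03 FPKM, and 16.6 and 15.5 against 15.4 and 15.4 FPKM, and neither passed. Zfp521, a cofactor of EBF factors, measured 3.98 and 4.08 FPKM with IL-22 against 4.91 and 6.16 FPKM in controls (-0.37, limma adjusted p = 0.0366), and its call was lost under 4 of 13 alternatives (limma adjusted p from 0.0151 to 0.162), namely without the filter, control library 2 or either IL-22 library. Its relative Zfp423 was listed at 0 in 3 of the 4 libraries. Zfp385a measured 19.8 and 19.0 against 14.0 and 15.4 FPKM (0.38, limma adjusted p = 0.00519), whereas Zfp385b and Zfp385d were listed at 0 in all 4 libraries. Zfp532 and Zfp592, whose human counterparts join in a chromatin complex, measured 11.4 and 10.7 against 13.02 and 15.2 FPKM, and 11.7 and 12.5 against 14.0 and 14.6 FPKM. Zfp532 passed (-0.33, limma adjusted p = 0.0219), but not without the filter, or with control library 2 or IL-22 library 2 left out (adjusted p by limma between 0.00976 and 0.125), and Zfp592 did not pass (-0.22, limma adjusted p = 0.0626).

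**Figure D5:**
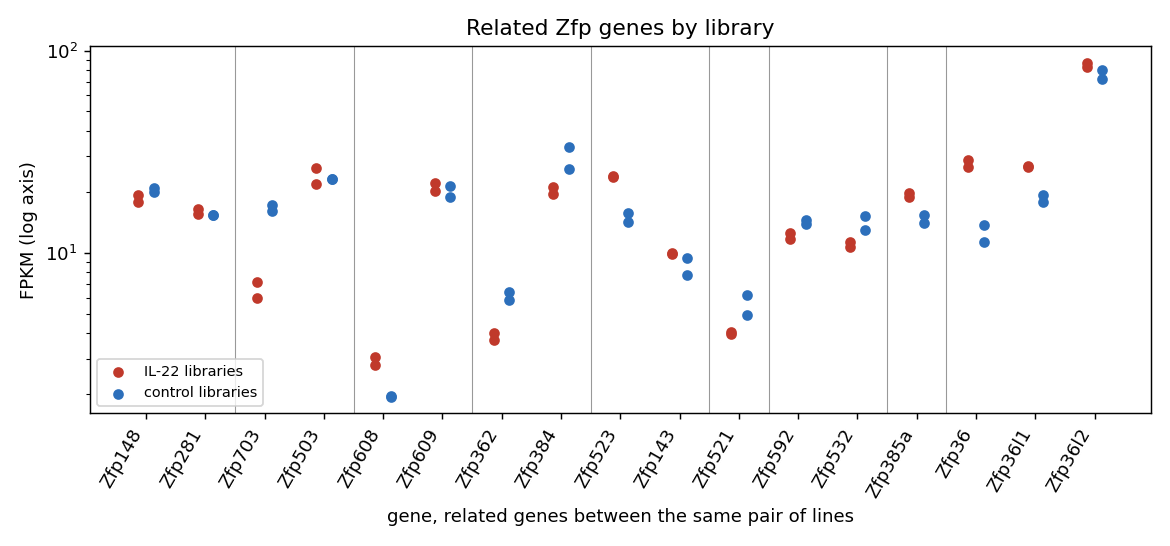
FPKM (log axis) in each IL-22 library (red, left) and each control library (blue, right) of related Zfp genes, with vertical lines between families. Zfp703 lies lower with IL-22 while Zfp503 overlaps, and Zfp36 and Zfp36l1 lie higher. Zfp423, Zfp385b and Zfp385d are not drawn.

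Promoter sequence from RefSeq (build GRCr8, which differs from the rn5 build of the deposited values) was at hand for 109 of the 132 members, reaching from 250 bases before to 50 after the start. Median GC content was 60.3% in the members and 61.3% in the 7171 promoters of tested genes. The letters of 8 motifs were searched on both strands. TTCNNNGAA, the form bound by STAT factors, was present in 1 of 16 higher, 3 of 27 lower and 7 of 66 other members, or 10.1% of the members in all, against 6.36% of promoters of tested genes and 8.87% of all 33469 promoters of this length. AP-1 letters (TGANTCA) were in 3 of 16 higher, 0 of 27 lower and 2 of 66 other members. That is 4.59% of the members in all, against 4.69% of promoters of tested genes and 7.33% of all promoters. The E2F letters TTTCCCGC were in 0 of 16 higher and 2 of 27 lower members, against 2.25% of promoters of tested genes and 0.974% of all, and TTTGGCGC was in 0 of 16 higher, 0 of 27 lower and 3 of 66 other members, against 1.02% and 0.493%. The CCAAT box was in 5 of 16 higher and 12 of 27 lower members, against 38.3% of promoters of tested genes and 37.5% of all. The E-box CACGTG was in 3 of 16 and 2 of 27 (9.89% and 6.42%), the cyclic AMP response element TGACGTCA in 0 of 16 and 2 of 27 (3.5% and 1.83%), and the composite C/EBP-ATF letters TGATGNAAT in 0 of 109 members (0.418% and 1.09%). These counts describe letters only and say nothing of binding.

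The promoters of the 2 CCCH genes that rose and of the members with the largest rise and fall on the log2(FPKM + 1) scale are shown from 250 bases before to 30 after the start, with the motif letters found in capitals. No motif matches overlapped. Zfp36 lies at chr1:92799079-92799358 on the minus strand, Zfp36l1 at chr6:104668661-104668940 on the minus strand, Zfp775 at chr4:78887780-78888059 on the plus strand and Zfp367 at chr17:970646-970925 on the plus strand, all in GRCr8.
Zfp36: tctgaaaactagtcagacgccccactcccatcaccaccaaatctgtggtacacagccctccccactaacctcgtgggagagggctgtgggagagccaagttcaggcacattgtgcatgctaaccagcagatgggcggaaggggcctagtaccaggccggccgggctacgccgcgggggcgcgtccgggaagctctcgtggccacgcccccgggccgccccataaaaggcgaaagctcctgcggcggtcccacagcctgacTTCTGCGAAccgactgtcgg
Zfp36l1: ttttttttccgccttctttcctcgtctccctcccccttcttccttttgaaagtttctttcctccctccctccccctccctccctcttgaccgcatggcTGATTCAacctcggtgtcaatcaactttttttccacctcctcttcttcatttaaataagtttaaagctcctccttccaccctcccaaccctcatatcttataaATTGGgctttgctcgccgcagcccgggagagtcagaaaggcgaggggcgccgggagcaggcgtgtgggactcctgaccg
Zfp775: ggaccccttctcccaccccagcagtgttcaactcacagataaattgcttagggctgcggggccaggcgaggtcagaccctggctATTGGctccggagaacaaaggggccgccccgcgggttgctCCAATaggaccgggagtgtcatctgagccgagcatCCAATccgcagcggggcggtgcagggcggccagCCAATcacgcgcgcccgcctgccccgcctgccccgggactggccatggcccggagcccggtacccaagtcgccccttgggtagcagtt
Zfp367: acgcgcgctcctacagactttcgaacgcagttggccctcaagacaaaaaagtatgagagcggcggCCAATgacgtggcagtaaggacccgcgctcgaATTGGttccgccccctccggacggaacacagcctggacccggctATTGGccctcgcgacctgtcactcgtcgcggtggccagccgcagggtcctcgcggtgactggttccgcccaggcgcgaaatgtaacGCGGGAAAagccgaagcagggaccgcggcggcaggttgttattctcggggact

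In Zfp36 the only match was TTCNNNGAA, which begins at base 11 of the transcript. Zfp36l1 held TGANTCA from base -152 and a CCAAT box from base -49. Zfp775 held 4 CCAAT boxes, from bases -166, -126, -91 and -58. Zfp367 held 3 CCAAT boxes, from bases -185, -153 and -109, and the E2F letters from base -23.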

How the data were processed

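Poly(A) libraries, 2 from IL-22-treated and 2 from control RSC96 cells, were, per the labels' protocols, sequenced on an Illumina HiSeq 2000. The authors deposited FPKM per gene, with a column for each library. The submitters' processing notes name TopHat2, Cuffdiff and build rn5. Versions, annotation, filters, strand and any scaling were not stated in the labels or headers, so reads of overlapping or antisense genes may be mixed. Without read totals no counting error could be given. Relative depth is the commonest ratio of low values. The deposited lncRNA table was not used.

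Rows with a mean of 1 FPKM or more (9485 of 17778) entered limma 3.58.1 (R 4.3.3) as log2(FPKM + 1), using eBayes with a mean-variance trend, no covariates and two-sided tests, with Benjamini-Hochberg adjustment over all these rows. This scale understates changes of low genes. An exact permutation test of 2 against 2 libraries has a smallest p of 0.333, and limma goes lower by sharing the spread across genes. The fit was also run on simulated rows with normally distributed noise, of which far fewer were changed than were called in these data. That run therefore does not measure the rate of false calls here.

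The members and lists were chosen with earlier results of these data known. The naming rule took, per direction, the 10 largest differences past the threshold, and also the 8 highest means, the 3 symbols on each side of 1 FPKM, up to 4 genes past the threshold per list, and Zfp36, Zfp36l1, Zfp36l2 and Trim28. Other genes named, the KRAB and BTB lists and the pairs of related genes were chosen after their values were seen. RefSeq (assembly GRCr8) matched 124 members by symbol and 7 by synonym. Classes by protein sequence were planned, but protein sequences were not used here, so domains and roles are background knowledge. Alternatives were pseudocounts of 0.1, 0.5 and 5, other filters, scalings and variance models, the replicate block and leaving out each library. Figures were drawn with matplotlib 3.10.9 in Python 3.11.15.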

Additional observations from a re-analysis of the deposited data

How the results depend on the processing

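The counts of 20 higher and 33 lower Zfp genes stayed within 1.5 times under 13 of 14 alternatives. With a minimum mean of 5 FPKM 13 were higher, since only 83 members were then tested. Leaving out 1 library gave from 14 to 19 higher and from 25 to 29 lower. In those fits the spread of the lone library was taken from the pair in the other arm. Deviations of same-numbered libraries had a correlation of -0.00197 across genes. With 2 libraries per group this is 1 comparison of library differences, so it cannot exclude pairing by replicate number. With the replicate block 22 were higher and 37 lower. Of the 53 called members 31 kept their call under every alternative that tested them (12 higher and 19 lower), and 0 changed sign. Of the 79 others 18 passed under at least 1 alternative. Signs changed in 7 named Zfp genes that did not pass, and in each case the cause was not tested. Zfp238, IL-22 minus control, gave 0.061 with quantile normalization and from -0.057 to 0.00035 without 1 library. Zfp496 gave 0.048 with quantile normalization, 0.0033 with median-of-ratios size factors and from -0.078 to 0.036 without 1 library. Without 1 library, Zfp347 gave from -0.25 to 0.040, Zfp503 from -0.066 to 0.19 and Zfp609 from -0.016 to 0.15. Over all alternatives, Zfp398 gave from -0.16 to 0.16 and Zfp426 from -0.034 to 0.16. Read totals are unknown, so the limit that depth sets was not measured.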

Other observations

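Genes under 1 FPKM were tested only in the fit without a filter, where 40.7% of 12482 rows passed. Of the 35 Zfp symbols above 0 but under the minimum 2 passed, both higher. Zfp52 measured 0.544 and 0.669 FPKM with IL-22 against 0.181 and 0.283 FPKM in controls, and Zfp9 0.658 and 0.627 against 0.0973 and 0.202 FPKM. Both were named after their values were seen.

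In RefSeq gene order 22 of the 131 members that could be placed lay next to another member, in 9 runs. Zfp692 and Zfp672 are neighbours and both fell (-0.37 and -0.70), as are Zfp35 and Zfp191 (-0.42 and -0.58). The call of Zfp35 was lost under 5 of 13 alternatives. Zfp786, Zfp398 and Zfp282 stand in a row, with Zfp786 higher, Zfp398 at a difference of 0.04 that did not pass and Zfp282 lower. In the run of Zfp26, Zfp426, Zfp266 and Zfp846 only Zfp266 passed, lower by limma. Related zinc-finger genes with a BTB domain under the symbol Zbtb numbered 32 tested, of which 3 were higher and 8 lower, or 34.4% called where 58.4% of all tested rows were called.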
